A study of Homo sapiens with 33 samples.

Results

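Interferon-stimulated genes were followed in 6 established human cell lines under DMSO, under the CDK4/6 inhibitor palbociclib and after its removal. The group was a fixed list of 48 gene symbols, selected by symbol without a threshold on any value, though with earlier results of these data known, and all 48 were among the 58302 genes of the deposited matrix. Each of the 48 reached 100 CP20M (reads scaled to a library of 20000000, the unit of the deposited values) in at least 1 library, so that all of them were among the 17803 genes tested.

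Interferons are secreted proteins that cells release on sensing viral or misplaced nucleic acid. Type I interferons act through the IFNAR1-IFNAR2 receptor and the kinases JAK1 and TYK2 to form a complex of STAT2 with IRF9 that binds a short element in the promoters of interferon-stimulated genes. The products block viral RNA and protein synthesis, tether or exclude particles, tag proteins with ISG15, or sense further nucleic acid. In arrested tumour cells the same genes have been studied as part of the secretory and antiviral state that can accompany senescence.

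The 33 libraries came from 4 malignant pleural mesothelioma (MPM) lines whose proliferation is arrested by palbociclib (H2052, H2452, H28 and MSTO-211H, called sensitive here) and from 2 resistant lines, the MPM line MPP89 with a mutated RB1 gene and MeT-5A, a non-malignant mesothelial line in which SV40 was used for immortalization, so that pRb is taken as inactive. Cells were kept for 9 or 10 days with palbociclib at 1 µM or with DMSO alone (0.1%), and DMSO and palbociclib dishes of 1 experiment made a pair. There were 2 pairs for H2052, 3 each for H2452, H28 and MSTO-211H, 2 for MPP89 and 1 for MeT-5A, in all 14 pairs, 11 of them in sensitive lines. For each sensitive line 1 further library came from cells kept 48 h in drug-free medium after 10 days of palbociclib (washout), and for MeT-5A 1 library came from untreated cells. Replicates are repeated experiments on 1 established line, so a p-value measures the spread between experiments where each line has its own fitted value. The fit of the 11 sensitive pairs has 1 palbociclib effect for the 4 lines, so its p-values also hold the spread of response between lines. In the washout fit, with 1 library per line and condition, the 4 lines are the replicates and a p-value measures the spread between them. No interferon-treated control is analysed here.

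Palbociclib acted in the dishes: MKI67, a proliferation marker, fell from between 1555 and 11301 CP20M under DMSO to between 171 and 2496 under palbociclib over the sensitive lines, and it was at 8453 and 10310 against 9100 and 10224 in MPP89. Of 9 mesothelial and epithelial markers, 4 to 8 reached 100 CP20M in a DMSO library of a given line, H28 lacked MSLN (mean 4.33 CP20M) and PDPN (1.33), and MeT-5A had WT1 and KRT19 at 0. Of 6 immune markers, CD3E was 0 in every library and PTPRC, carried by all white blood cells, reached 42 at most. The 6 immune markers summed, mostly CD68, to between 130 and 201 CP20M in the DMSO libraries of H28, 524 and 695 in MPP89, and 1283 and 1600 in H2452, and their part in the results was not tested. Of 22 interferon ligand genes, 9 were at 0 in all 33 libraries, none reached 100 CP20M, and the highest value was 42 for IFNE in an MSTO-211H DMSO library.

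For 39 of the 48 genes RefSeq gave a window from 250 bases before to 50 bases after a transcription start (GRCh38.p14), and the interferon-stimulated response element was searched there as its core, TTTC followed after any 2 bases by TTTC again, or the same with GAAA, its reverse complement. The core was present in 25 of the 39 genes (64.1%), against 1195 of all 27305 genes of the table (4.38%). The gamma-activated site, TTCNNNGAA on either strand, was present in 13 of the 39 (33.3%) against 9.38% of all genes. The stretches from 150 bases before to 50 bases after the start are shown for 5 genes that cover the responses described further on (rise, no call and fall) with several cores, 1 or none, each core in capitals. They are chr10:89392473-89392672 (plus strand) for IFIT1, chr10:89414418-89414617 (plus) for IFIT5, chr4:88456969-88457168 (plus) for HERC5, chr1:89022817-89023016 (minus) for GBP3 and chr7:93148336-93148535 (minus) for SAMD9L, each written 5′ to 3′ along the gene.
IFIT1: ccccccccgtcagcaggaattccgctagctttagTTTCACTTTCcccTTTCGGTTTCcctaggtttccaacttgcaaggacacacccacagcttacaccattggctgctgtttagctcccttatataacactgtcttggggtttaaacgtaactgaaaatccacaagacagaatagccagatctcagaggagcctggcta
IFIT5: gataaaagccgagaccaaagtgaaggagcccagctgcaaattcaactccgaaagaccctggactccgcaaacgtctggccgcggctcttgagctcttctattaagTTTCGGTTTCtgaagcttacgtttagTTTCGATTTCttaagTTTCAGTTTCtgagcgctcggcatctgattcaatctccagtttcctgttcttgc
HERC5: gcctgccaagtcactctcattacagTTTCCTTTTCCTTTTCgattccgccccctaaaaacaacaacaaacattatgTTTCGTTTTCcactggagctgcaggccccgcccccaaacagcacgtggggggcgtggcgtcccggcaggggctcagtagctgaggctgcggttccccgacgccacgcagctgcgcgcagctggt
GBP3: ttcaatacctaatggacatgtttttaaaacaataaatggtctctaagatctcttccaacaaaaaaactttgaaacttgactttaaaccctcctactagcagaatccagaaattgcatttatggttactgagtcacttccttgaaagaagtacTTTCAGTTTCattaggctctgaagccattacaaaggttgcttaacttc
SAMD9L: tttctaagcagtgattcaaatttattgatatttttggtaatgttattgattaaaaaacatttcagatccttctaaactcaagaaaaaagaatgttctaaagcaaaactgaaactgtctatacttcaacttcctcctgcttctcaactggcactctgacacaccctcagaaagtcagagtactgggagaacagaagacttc
IFIT1 held 2 cores at 116 and 103 bases before the start, IFIT5 held 3, HERC5 held 3 of which 2 overlap, GBP3 held 1 just after the start, and SAMD9L held none in this window.

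Under DMSO alone, the lines differed widely in these genes. H28 was nearly silent, MPP89 was the highest line, H2452 was high, and H2052, MSTO-211H and MeT-5A lay between, with some genes high and others near 0. Over the 14 DMSO libraries the level differed among the 6 lines for all 48 genes (limma F test, false discovery rate under 0.05), a test that 95.6% of all genes tested also passed. The size of the difference set them apart as a description: the median range of line means was 5.36 on the log2(CP20M + 10) scale for the 48 genes and 1.71 for all genes tested.

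**Figure D1:**
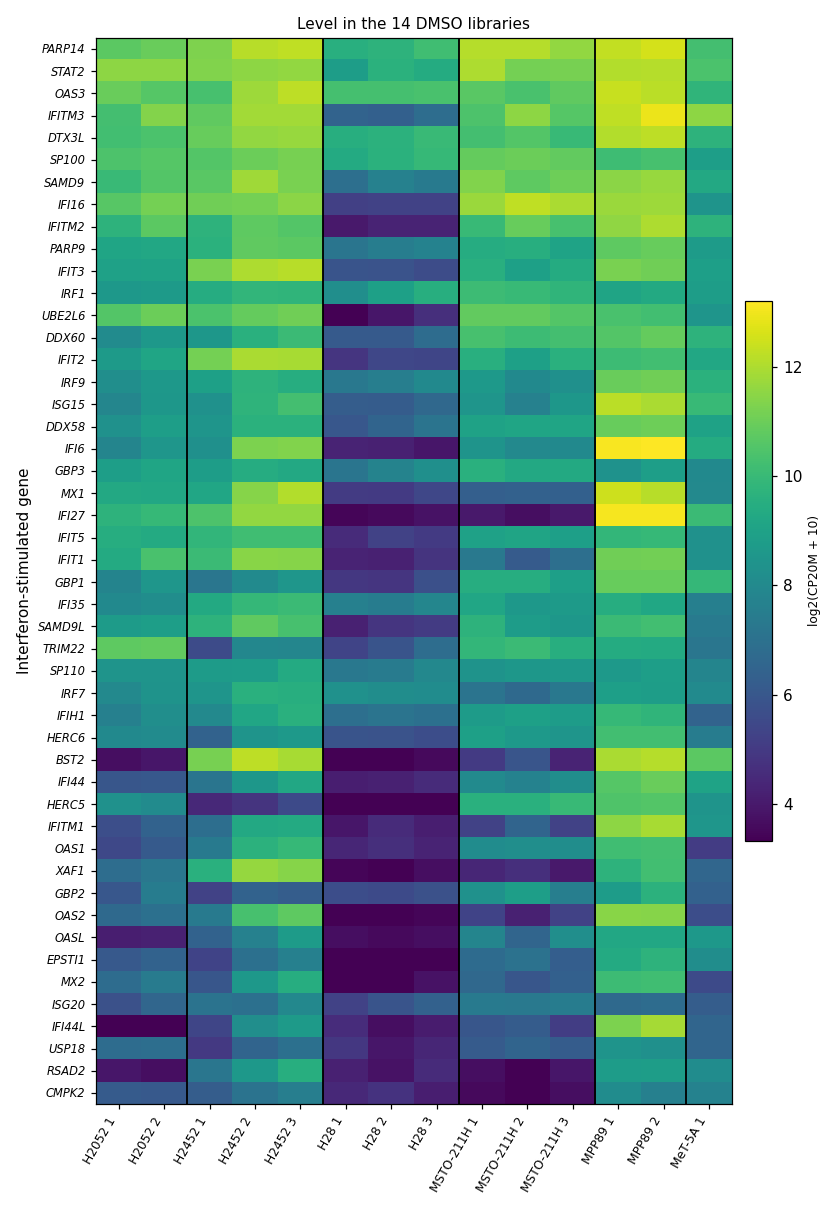
Level of the 48 interferon-stimulated genes (rows, ordered by mean level over lines) in the 14 DMSO libraries (columns, line and replicate), as log2(CP20M + 10) on a colour scale with lighter colours for higher values. The 3 H28 columns are dark in most rows, and the 2 MPP89 columns are light in most rows; H2452 replicate 1 is darker than replicates 2 and 3.

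In H28, 45 of the 48 genes were lower than the mean of the other 5 lines (29.6% of all genes were) and 0 were higher (background 19.7%), with 46 at an unadjusted p under 0.05. In that comparison 12448 of all 17803 genes tested had an unadjusted p under 0.05. The median difference over the 48 was -3.28 on the log2 scale, beside -0.08 for all genes, and was the same with the 2 genes at 0 in every H28 DMSO library, HERC5 and EPSTI1, set to 3 reads. HERC5, the main ligase that joins ISG15 to proteins, was 0, 0 and 0 CP20M under DMSO in H28, and EPSTI1 was 0 in all 7 H28 libraries. IFITM2, which hinders viral entry, was 6, 10 and 10 CP20M in the H28 DMSO libraries against a lowest value of 828 in the DMSO libraries of the other lines, a difference of -6.28 ± 0.26 (SE; adjusted p = 1.01e-09). UBE2L6, the conjugating enzyme for ISG15, was 0, 5 and 15 CP20M, a difference of -6.26 ± 0.23 (SE; adjusted p = 3.79e-10). IFI27 (-5.99 ± 0.21, adjusted p = 3.18e-10), IFI6 (-5.67 ± 0.50, adjusted p = 7.82e-07) and the DNA sensor IFI16 (-5.60 ± 0.13, adjusted p = 1.87e-11) completed the 5 largest deficits. The H28 cells were not devoid of the group: OAS3, a maker of the 2-5A messenger that activates RNase L, was 1255, 1257 and 1330 CP20M, and DTX3L was 726, 799 and 1022. In 31 of the 48 genes every H28 DMSO library lay below every DMSO library of the other lines, as it did in 11.7% of all genes tested.

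In MPP89, 42 genes were higher than the mean of the other lines (24.4% of all genes) and 0 lower (background 14%), 44 having an unadjusted p under 0.05, with a median difference of 2.32 beside 0.07 for all genes. An unadjusted p under 0.05 was found for 10346 of all 17803 genes tested. IFI44L was 2464 and 3741 CP20M there, against 0 and 0 in H2052 and a highest value of 412 in the DMSO libraries of the other lines, and its difference was 6.14 ± 0.63 (SE; adjusted p = 7.04e-06). OAS2, which makes 2-5A, was 2776 and 2700 (5.37 ± 0.63, adjusted p = 2.16e-05) and IFITM1, a membrane protein that hinders viral fusion, was 2964 and 3892 (5.14 ± 0.54, adjusted p = 8.25e-06). IFI27 at 8490 and 8598 CP20M (5.34 ± 0.25, adjusted p = 6.82e-09) and IFI6 at 8757 and 9447 (5.12 ± 0.58, adjusted p = 1.63e-05), both small membrane proteins of mitochondria or endoplasmic reticulum, followed. In 25 of the 48 genes both MPP89 libraries lay above every other DMSO library, as they did in 9.84% of all genes tested.

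H2452 had 32 genes higher (18.2% of all genes) and 4 lower (29.3%) than the mean of the other lines, with a median of 1.01 beside -0.11. BST2, also called tetherin because it holds budding viruses on the cell, was 2280, 4726 and 3808 CP20M in H2452 (4.75 ± 0.29, adjusted p = 4.18e-08), 3946 and 4343 in MPP89 and 1692 in MeT-5A. In the other lines it was close to silent, at 22, 51 and 10 in MSTO-211H, 3 and 5 in H2052 and 0, 0 and 2 in H28. XAF1, a pro-apoptotic partner of XIAP, was 757, 3226 and 2695 in H2452 (4.59 ± 0.35, adjusted p = 2.99e-07). IFI27, IFIT2 and OAS2 were the next in size at 3.13 ± 0.21, 3.10 ± 0.20 and 3.03 ± 0.54. The 4 lower genes were HERC5 at 12, 18 and 36 CP20M (-3.11 ± 0.19, adjusted p = 5.21e-08), TRIM22, GBP2 and GBP1.

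H2052 had 9 genes higher (18.8% of the 48, against 20.5% of all genes) and 11 lower (22.9% against 22.5%). MSTO-211H had 17 higher (35.4% against 21.5%) and 12 lower (25% against 23%). The means set against H2452, H2052, MSTO-211H and MeT-5A each include H28 and MPP89. These 2 lines had median differences of -3.28 and 2.32 for the 48 genes, so the counts depend on both. TRIM22, an antiviral ubiquitin ligase, was the largest excess of H2052, at 1696 and 1811 CP20M (2.87 ± 0.50, adjusted p = 0.000443), and BST2 the largest deficit (-4.80 ± 0.33, adjusted p = 3.15e-07). In MSTO-211H the largest excess was HERC5 at 762, 772 and 1002 CP20M (2.65 ± 0.19, adjusted p = 2.65e-07) and the largest deficit IFI27 at 6, 3 and 6 (-5.65 ± 0.21, adjusted p = 1.23e-09). MeT-5A, with 1 DMSO library whose spread was taken from the other lines, had 9 higher (24.3%) and 10 lower (15.8%), led by BST2 (3.52 ± 0.45, adjusted p = 7.79e-05) and OAS1 (-2.44 ± 0.64, adjusted p = 0.00855). IFIT2 was at 606 CP20M in its DMSO library and 547 in its untreated library, MX1 at 242 and 426, and IFITM3 at 2974 and 1404.

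Palbociclib raised a minority of the group in the sensitive lines. Over the 11 pairs, with the experiment as a block, 11 genes passed a fold change above 1.5 at a false discovery rate under 0.05 upwards (22.9% of the 48, against 5.58% of all genes) and 1 downwards (2.08% against 9.37%). The other 36 did not pass. The median change was 0.19 on the log2(CP20M + 10) scale, beside -0.11 for all genes, and 38 of the 48 estimates were above 0. Scaling by median of ratios moved the median of all genes from -0.11 to 0.06 and that of the 48 to 0.38, with 15 genes up (9.88% of all genes under that scaling) and 0 down (5.17%). IFIT2, OAS2, IFI6, SAMD9L, GBP3, IFI27, IFIT3, SAMD9, GBP1, ISG15 and DDX58 rose and HERC5 fell.

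**Figure D2:**
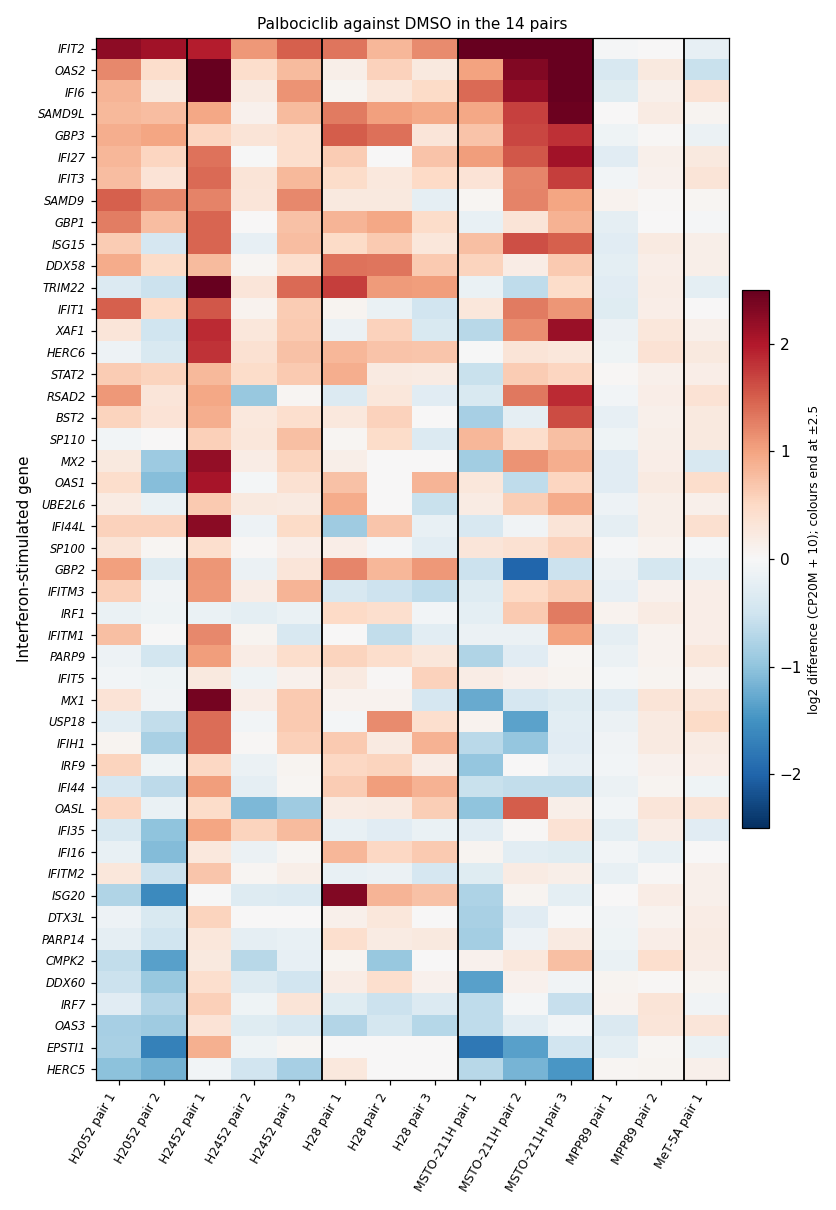
Difference of palbociclib from DMSO, on the log2(CP20M + 10) scale, for the 48 genes (rows, ordered by the estimate over the 11 sensitive pairs) in the 14 pairs (columns); red is higher and blue lower under palbociclib, and colours end at 2.5. IFIT2 at the top is red in all 11 sensitive pairs, H2452 pair 1 is red in most rows, and the 3 columns of MPP89 and MeT-5A are pale.

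In what follows, values of a line are in CP20M and in the order of the experiments, DMSO against palbociclib. IFIT2, a tetratricopeptide protein that limits translation of viral RNA, had the largest change. Under DMSO it was 406 and 550 CP20M in H2052 and under palbociclib 1941 and 2398. In MSTO-211H it was 747, 478 and 757 against 7218, 5695 and 9808, and in H28 19, 33 and 32 against 63, 66 and 85. H2452 was higher under DMSO, at 2279, 3999 and 3864 against 8855, 8536 and 10930. In each of the 4 lines every palbociclib library lay above every DMSO library, although the DMSO levels ranged from 19 in H28 to 3999 in H2452. The change over the 11 pairs was 2.06 ± 0.27 (SE; adjusted p = 4.7e-05). By line it was 3.49 ± 0.14 in MSTO-211H, 2.17 ± 0.17 in H2052, 1.51 ± 0.14 in H2452 and 1.11 ± 0.14 in H28, each with an adjusted p of 0.000129 or less. The other genes of its cluster on chromosome 10 had smaller estimates.

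IFIT3, which stabilizes IFIT1 on foreign RNA, was 745, 482 and 662 CP20M under DMSO and 942, 1137 and 2221 under palbociclib in MSTO-211H, and 2356, 4084 and 4531 against 6268, 5112 and 7911 in H2452. In H2052 the values were 493 and 507 against 845 and 647, in H28 50, 48 and 39 against 72, 60 and 59, and the change over the 11 pairs was 0.74 ± 0.14 (SE; adjusted p = 0.000659). All 11 pairs were higher under the drug. IFIT1, which binds RNA lacking the host cap methylation, was 653 and 1310 against 1855 and 1864 in H2052, 1053, 2767 and 2681 against 3120, 2941 and 4173 in H2452, and 148, 62 and 111 against 181, 168 and 251 in MSTO-211H. It passed in each of those 3 lines and not in H28, where it was 10, 9 and 18 against 11, 7 and 10; over the 11 pairs its change of 0.58 ± 0.19 (SE; adjusted p = 0.0206) lay just under the 1.5-fold limit. IFIT5, with 3 cores in its window, changed by 0.11 ± 0.07 (SE; adjusted p = 0.214) and passed in no line.

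Among the small membrane proteins, IFI6 was 338, 239 and 248 CP20M under DMSO and 922, 1131 and 1699 under palbociclib in MSTO-211H, with no overlap. In H2452 it was 301, 2439 and 2592 against 2177, 2867 and 5640, the pairs differing by 2.81, 0.23 and 1.12, and in H2052 215 and 355 against 393 and 423. H28 was low throughout, at 10, 9 and 5 against 11, 13 and 11. Over the 11 pairs IFI6 changed by 1.13 ± 0.27 (SE; adjusted p = 0.00381). IFI27 changed by 0.84 ± 0.18 (SE; adjusted p = 0.00175), from 1401, 3113 and 3073 to 3627, 3109 and 4133 in H2452 and from 825 and 981 to 1481 and 1427 in H2052. IFI27 stood at 6, 3 and 6 against 23, 28 and 59 in MSTO-211H and at 1, 2 and 4 against 7, 2 and 13 in H28. It passed in MSTO-211H alone, 1.57 ± 0.24 (SE; adjusted p = 0.000244), and set out from a handful of reads. With a pseudocount of 50 in place of 10 the estimate over the 11 pairs was 0.49 and did not pass the fold limit.

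The 2 SAMD9 genes, which lie 12.03 kb apart on chromosome 7 and code for proteins that restrain translation and growth, both rose. SAMD9L was 838, 436 and 362 CP20M under DMSO and 1639, 1457 and 2031 under palbociclib in MSTO-211H, with 9, 19 and 23 against 37, 49 and 54 in H28. SAMD9L stood at 833, 1747 and 1290 against 1644, 1885 and 2226 in H2452, with 422 and 456 against 744 and 784 in H2052. It was higher in all 11 pairs, changed by 1.08 ± 0.16 (SE; adjusted p = 0.000148), and like IFIT2 passed upwards in each of the 4 lines. Its call in H2452 was lost under 11 of 23 alternatives, among them without experiment 1 (0.45, adjusted p = 0.249), and its call in H28 with a pseudocount of 50 (0.53, adjusted p = 0.0589). The DMSO and palbociclib values of SAMD9L overlapped in H2452 alone. SAMD9 changed by 0.73 ± 0.16 (SE; adjusted p = 0.00228), from 1037 and 1509 to 2929 and 3492 in H2052, and was 111, 193 and 158 against 134, 232 and 134 in H28, where it did not pass (0.09 ± 0.21, adjusted p = 0.774).

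Of the 3 guanylate-binding protein genes, large GTPases that coat vacuoles of pathogens and respond chiefly to interferon-gamma, GBP3 and GBP1 rose. GBP3 was 755, 607 and 634 CP20M under DMSO and 1250, 1965 and 2280 under palbociclib in MSTO-211H. GBP3 stood at 453 and 552 against 855 and 1101 in H2052, with 134, 204 and 294 against 402, 548 and 364 in H28, and the groups did not overlap in these lines. In H2452 it was 444, 683 and 612 against 647, 861 and 817, and over the 11 pairs it changed by 0.96 ± 0.15 (SE; adjusted p = 0.000204). GBP1 was 705, 703 and 473 against 622, 885 and 868 in MSTO-211H, with 20, 19 and 43 against 44, 47 and 63 in H28. GBP1 stood at 136, 254 and 358 against 390, 256 and 598 in H2452, with 213 and 352 against 528 and 612 in H2052. The change of GBP1 over the 11 pairs was 0.69 ± 0.14 (SE; adjusted p = 0.00134). GBP2 took opposite directions, at 40, 37 and 44 against 106, 73 and 104 in H28 (1.04 ± 0.31, adjusted p = 0.0196) and at 312, 459 and 176 against 211, 109 and 118 in MSTO-211H (-1.02 ± 0.31, adjusted p = 0.0162; 0.0528 with scaling by median of ratios). GBP1 and GBP3 are similar in sequence, and how reads that fit both were assigned is not given in the sources used here.

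**Figure D3:**
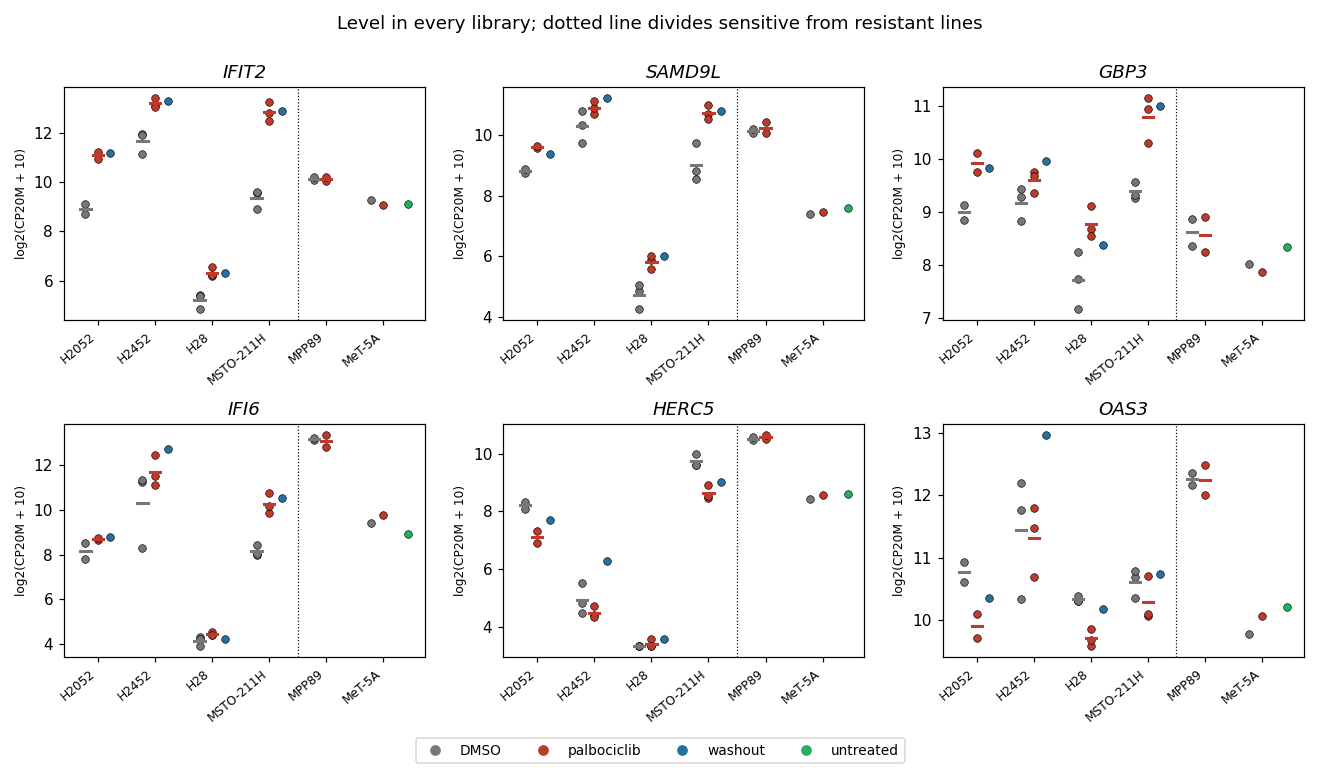
Level of 6 genes as log2(CP20M + 10) in every library of each line, with points for libraries and bars for the mean of these log values where a group has more than 1 library. IFIT2, SAMD9L and GBP3 are higher under palbociclib (red) than under DMSO (grey) in the 4 sensitive lines left of the dotted line, HERC5 is lower in H2052 and MSTO-211H, and MPP89 and MeT-5A show little shift.

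The RNA sensors split. DDX58, which codes for RIG-I, was 510, 555 and 547 CP20M under DMSO and 756, 635 and 872 under palbociclib in MSTO-211H, with 54, 80 and 130 against 154, 218 and 210 in H28. DDX58 stood at 351, 782 and 792 against 618, 810 and 1057 in H2452, with 310 and 450 against 599 and 629 in H2052. It was higher in all 11 pairs and changed by 0.68 ± 0.12 (SE; adjusted p = 0.000445), or by 0.58, short of the fold limit, with a pseudocount of 50. IFIH1, or MDA5, the sensor of long double-stranded RNA, went up in H2452, from 244, 566 and 759 to 659, 580 and 1154 (0.68 ± 0.24, adjusted p = 0.0379), and down in MSTO-211H, from 423, 475 and 426 to 260, 238 and 350 (-0.64 ± 0.24, adjusted p = 0.0388). In H2052 IFIH1 was 189 and 285 against 200 and 159 and in H28 112, 128 and 117 against 183, 151 and 223, and neither passed. The fall in MSTO-211H did not pass under either other scaling. The related helicase DDX60 changed by -0.23 ± 0.15 (SE; adjusted p = 0.235) over the 11 pairs.

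In the 2-5A family on chromosome 12, OAS2 rose and OAS3 did not. OAS2 was 30, 9 and 29 CP20M under DMSO and 70, 84 and 239 under palbociclib in MSTO-211H, with 154, 1262 and 1722 against 1000, 1715 and 2996 in H2452. OAS2 stood at 95 and 115 against 233 and 160 in H2052, with 0, 0 and 1 against 1, 5 and 3 in H28. Every pair was higher under the drug, and the change was 1.13 ± 0.26 (SE; adjusted p = 0.00263). OAS3, whose gene ends 1.935 kb before OAS2 begins, was 1944 and 1556 against 1087 and 832 in H2052, with 1255, 1257 and 1330 against 756, 919 and 813 in H28. OAS3 stood at 1286, 3481 and 4706 against 1636, 2825 and 3566 in H2452, with 1641, 1303 and 1752 against 1058, 1083 and 1668 in MSTO-211H. Its change of -0.45 ± 0.10 (SE; adjusted p = 0.00281) had an adjusted p under 0.05 and did not reach the fold limit, while H2052 (-0.86 ± 0.19) and H28 (-0.62 ± 0.15) passed downwards, neither of them after scaling by median of ratios or by upper quartile. OAS1 was 268, 282 and 281 against 327, 179 and 412 in MSTO-211H, with 11, 15 and 10 against 25, 15 and 26 in H28. OAS1 stood at 157, 812 and 985 against 684, 784 and 1285 in H2452, with 34 and 59 against 50 and 23 in H2052. The change of OAS1 over the 11 pairs was 0.32 ± 0.22 (SE; adjusted p = 0.24). OASL, which has no 2-5A activity, was 77, 192 and 421 against 109, 83 and 223 in H2452 and 216, 84 and 284 against 102, 257 and 314 in MSTO-211H. It was at most 16 in H2052 and 10 in H28. Its estimate of 0.05 ± 0.22 (SE; adjusted p = 0.877) changed sign under several alternatives.

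The ISG15 system also split by its parts. ISG15, a ubiquitin-like modifier, was 351, 192 and 366 CP20M under DMSO and 599, 604 and 1050 under palbociclib in MSTO-211H, with 66, 63 and 90 against 96, 105 and 112 in H28. ISG15 stood at 311, 850 and 1200 against 873, 740 and 2064 in H2452, with 225 and 363 against 353 and 270 in H2052. It changed by 0.68 ± 0.18 (SE; adjusted p = 0.0061), and the groups did not overlap in H28 and MSTO-211H. HERC5, the ligase, was 313 and 262 against 148 and 110 in H2052 (-1.11 ± 0.21, adjusted p = 0.00136), and 762, 772 and 1002 against 466, 341 and 359 in MSTO-211H (-1.10 ± 0.17, adjusted p = 0.000216). In H2452 it was 12, 18 and 36 against 11, 10 and 16, and in H28 0, 0 and 0 against 2, 0 and 0, for which no fold is given. Both passing lines kept the fall of HERC5 under every alternative run, whereas the change over the 11 pairs, -0.60 ± 0.16 (SE; adjusted p = 0.00845), did not pass under 10 of 21 alternatives, among them both other scalings (-0.47 and -0.47). Its neighbour HERC6, 14.02 kb away on chromosome 4, rose in H2452 (0.97 ± 0.21) and H28 (0.75 ± 0.21). USP18, the protease that removes ISG15 and damps the receptor, was 61, 81 and 64 against 65, 26 and 52 in MSTO-211H, with 20, 5 and 11 against 19, 24 and 18 in H28. USP18 stood at 21, 82 and 117 against 72, 78 and 191 in H2452, with 102 and 109 against 83 and 68 in H2052. The change of USP18 over the 11 pairs was 0.11 ± 0.21 (SE; adjusted p = 0.706). UBE2L6 changed by 0.30 ± 0.13 (SE; adjusted p = 0.0654).

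MX1, RSAD2, IFI44L and BST2 did not pass over the 11 pairs. MX1, a dynamin-like GTPase that traps viral nucleocapsids, was 69, 73 and 72 CP20M under DMSO and 23, 52 and 56 under palbociclib in MSTO-211H, with 23, 22 and 33 against 25, 24 and 22 in H28. MX1 stood at 566, 2712 and 4305 against 3023, 3051 and 6787 in H2452, with 609 and 595 against 770 and 561 in H2052. The change was 0.11 ± 0.24 (SE; adjusted p = 0.724), and -0.12 without H2452 experiment 1. RSAD2 was 139, 378 and 730 against 282, 191 and 752 in H2452, and under 50 in every DMSO and palbociclib library of H2052, H28 and MSTO-211H. IFI44L was 32, 283 and 412 against 190, 260 and 577 in H2452 and 53, 63 and 25 against 38, 59 and 34 in MSTO-211H, with 0 and 0 against 5 and 5 in H2052 and 14, 3 and 7 against 3, 11 and 5 in H28. Their changes were 0.36 ± 0.23 (SE; adjusted p = 0.218) and 0.30 ± 0.22 (SE; adjusted p = 0.282). BST2 changed by 0.35 ± 0.17 (SE; adjusted p = 0.11), and it was 4270, 5668 and 5076 under palbociclib in H2452, 8, 42 and 52 in MSTO-211H, 9 and 9 in H2052 and 2, 5 and 2 in H28. BST2 was near silent under palbociclib in the same 3 lines as under DMSO.

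IFITM1 and IFITM3 hinder viral fusion with membranes and lie 4.404 kb apart on chromosome 11 beside IFITM2, a close copy whose reads may not be separable from theirs. IFITM1 was 29, 80 and 29 against 25, 71 and 68 in MSTO-211H, with 5, 13 and 8 against 5, 5 and 5 in H28. IFITM1 stood at 108, 607 and 657 against 263, 634 and 495 in H2452, with 42 and 77 against 77 and 76 in H2052. The change of IFITM1 over the 11 pairs was 0.13 ± 0.17 (SE; adjusted p = 0.547). IFITM3 was 1393, 2904 and 1551 against 1107, 4083 and 2372 in MSTO-211H, with 79, 72 and 107 against 57, 47 and 65 in H28. IFITM3 stood at 1762, 3611 and 3618 against 3744, 4131 and 6512 in H2452, with 1207 and 2607 against 1833 and 2442 in H2052. It passed in H2452 alone (0.71 ± 0.19, adjusted p = 0.0114), and over the 11 pairs it changed by 0.17 ± 0.16 (SE; adjusted p = 0.408).

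The transcription factors of the pathway moved little. STAT2 was 4027, 2260 and 2304 CP20M under DMSO and 2746, 3518 and 3361 under palbociclib in MSTO-211H, with 442, 778 and 673 against 842, 907 and 780 in H28. STAT2 stood at 2543, 2948 and 3079 against 4439, 4062 and 4881 in H2452, with 2928 and 2969 against 4538 and 4364 in H2052. Its change of 0.46 ± 0.11 (SE; adjusted p = 0.00352) had an adjusted p under 0.05 but lay below the fold limit, which it passed at 0.66 and 0.63 with the other 2 scalings. IRF9, the DNA-binding partner of STAT2, was 385, 246 and 304 against 192, 248 and 263 in MSTO-211H, with 147, 179 and 251 against 215, 268 and 285 in H28. IRF9 stood at 480, 833 and 704 against 689, 755 and 741 in H2452, with 282 and 375 against 418 and 347 in H2052. The change of IRF9 was 0.09 ± 0.13 (SE; adjusted p = 0.587). IRF7, which amplifies interferon production, was 129, 93 and 147 against 80, 90 and 96 in MSTO-211H, with 314, 280 and 269 against 252, 190 and 209 in H28. IRF7 stood at 343, 756 and 722 against 525, 705 and 909 in H2452, with 241 and 330 against 196 and 195 in H2052. The change of IRF7 was -0.24 ± 0.12 (SE; adjusted p = 0.115). IRF1, the factor nearest to interferon-gamma, was 1096, 1009 and 882 against 922, 1599 and 2175 in MSTO-211H, with overlapping groups, and ranged from 288 to 904 over the DMSO and palbociclib libraries of the other 3 sensitive lines (0.15 ± 0.14, adjusted p = 0.366).

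By line the pattern varied. H2052 had 7 genes up (background 5.91%) and 7 down (20.8%), H2452 15 up (7.24%) and 0 down (11.8%), H28 11 up (8.36%) and 1 down (10.1%), and MSTO-211H 11 up (10.6%) and 5 down (15.5%). Without the block the counts were 11 up and 3 down in MSTO-211H (9.11% and 13.6% of all genes), 6 up and 0 down in H28 (6.02% and 8.45%), 6 up in H2452 (5.03%) and 3 up and 4 down in H2052 (3.8% and 16.4%). With scaling by median of ratios, which raised the upward shares over all genes too, they were 15 up and 2 down in MSTO-211H (15.2% and 9.6% of all genes), 12 up and 0 down in H28 (12.2% and 6.89%), 23 up in H2452 (11.9%) and 10 up and 3 down in H2052 (13.0% and 8.73%). H2052 kept 2 genes up without pair 1, and 4 up and 1 down without pair 2, and H28 had 6 up without pair 1. In H2452 no gene passed downwards. An unadjusted p under 0.05 was found there for 25 of the 48 and for 8457 of all 17803 genes tested. Of the 48, 2 passed upwards in all 4 lines (IFIT2 and SAMD9L), 4 in 3 lines (IFIT1, SAMD9, GBP1 and GBP3), 6 in 2, 12 in 1 and 24 in none. Of all genes tested, 0.62% passed upwards in all 4 lines, 2.62% in at least 3, 7.65% in at least 2 and 21.2% in at least 1, and of the 48 genes 1 passed in all 4 without the block and 4 with scaling by median of ratios. Downwards, HERC5, OAS3 and EPSTI1 passed in 2 lines, 7 genes in 1 and 38 in none, and 14.8% of all genes passed in at least 2. IFI35, IFI44, IFI16, IFIH1, ISG20 and GBP2, 6 of the 48 (2.68% of all genes), passed upwards in 1 line and downwards in another. With scaling by median of ratios only ISG20 did so (2.35% of all genes), the downward calls of the other 5 being lost, and without the block IFI35, IFI16 and ISG20 did. In 33 genes the mean change was above 0 in some sensitive lines and below 0 in others. The like count was not made over all genes, so it does not set these genes apart.

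Among those 6, ISG20, an exonuclease of viral RNA, was 29, 49 and 73 CP20M under DMSO and 183, 96 and 127 under palbociclib in H28 (1.29 ± 0.27, adjusted p = 0.00295) and 44 and 87 against 22 and 22 in H2052 (-1.18 ± 0.33, adjusted p = 0.0135). IFI16 was 27, 29 and 29 against 56, 46 and 51 in H28 (0.67 ± 0.14, adjusted p = 0.00313) and 1590 and 2238 against 1398 and 1052 in H2052 (-0.63 ± 0.17, adjusted p = 0.0116). IFI35 was 639, 943 and 1060 against 1274, 1392 and 1841 in H2452 (0.78 ± 0.15, adjusted p = 0.00129) and 251 and 278 against 187 and 133 in H2052 (-0.71 ± 0.18, adjusted p = 0.00738). In each of these 3 genes the groups did not overlap in either line. After scaling by median of ratios the estimates in H2052 were -0.32 for IFI16 and -0.41 for IFI35, which did not pass. The other falls in H2052 were EPSTI1, from 58 and 77 to 29 and 17 (-1.25 ± 0.31, adjusted p = 0.00653), HERC5, OAS3 and CMPK2, a mitochondrial nucleotide kinase, from 62 and 57 to 37 and 16 (-0.99 ± 0.30, adjusted p = 0.0182), a call lost under both other scalings (adjusted p = 0.0762 and 0.0913). In MSTO-211H EPSTI1 went from 100, 121 and 67 to 22, 41 and 45 (-1.21 ± 0.25, adjusted p = 0.00172) and IFI44 from 255, 201 and 278 to 171, 127 and 177 (-0.60 ± 0.19, adjusted p = 0.0215), the latter lost under both other scalings (adjusted p = 0.0957 and 0.0813), while in H28 IFI44 went from 8, 9 and 13 to 18, 29 and 32 (0.85 ± 0.19, adjusted p = 0.00464). TRIM22 rose in H28, from 31, 50 and 107 to 125, 115 and 232 (1.28 ± 0.32, adjusted p = 0.00831), and in H2452 (1.45 ± 0.32, adjusted p = 0.00379).

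A test of the difference among the 4 sensitive lines (limma F test of the line-specific changes) was passed by 18 of the 48 genes, 37.5%, against 43.6% of all genes tested, and by 6 of the 48 (12.5%) against 18.2% without the block. In both fits the share of the 48 was below that over all genes. IFIT2 was the clearest of them, with an adjusted p of 3.86e-05: its change was 3.49 ± 0.14 in MSTO-211H and 1.11 ± 0.14 in H28.

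The H2452 counts depended on experiment 1. The DMSO library of H2452 experiment 1 was the lowest of the 3 DMSO libraries for 47 of the 48 genes, with a median of -1.09 (log2) against the mean of the other 2, and 28 genes were more than 2-fold below. Over all genes tested this library had a median difference of 0.02, was the lowest for 22.9% of genes and was more than 2-fold below for 0.60%. OAS2, at 154 against 1262 and 1722 CP20M, IFI44L, at 32 against 283 and 412, and MX2, at 53 against 375 and 696, were the farthest below. In the palbociclib library of the same experiment 31 of the 48 genes were the lowest of the 3, with a median of -0.36.

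Pair 1 of H2452 had 45 of 48 genes higher under palbociclib with a median of 0.98, pair 2 had 27 with 0.03, and pair 3 had 39 with 0.41. Without experiment 3, 7 genes passed upwards in H2452 in place of 15, without experiment 2, 24, and without experiment 1, 3: IFIT2 (1.29, adjusted p = 0.000146), IFI35 (0.67, adjusted p = 0.0189) and TRIM22 (0.86, adjusted p = 0.0453). Over the remaining 10 sensitive pairs 11 to 13 genes passed upwards whichever pair was left out, and MX1, IFIH1 and USP18 changed sign without H2452 experiment 1. MSTO-211H pair 1 also differed from its fellows, with 19 genes higher and 29 lower (median -0.26) against 30 and 34 higher in pairs 2 and 3 (0.20 and 0.54), and without it 17 genes passed upwards and 3 downwards in MSTO-211H and 29 genes differed among the lines. In H2052 the 2 pairs had 29 and 17 genes higher, with medians of 0.31 and -0.16, beside -0.23 and -0.24 for all genes tested. The medians of all genes were -0.17, -0.02 and -0.11 in MSTO-211H pairs 1, 2 and 3. In H2452 pairs 1, 2 and 3 they were -0.11, -0.07 and -0.13. What differed between the experiments of a line besides the days of treatment is not given in the labels.

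**Figure D4:**
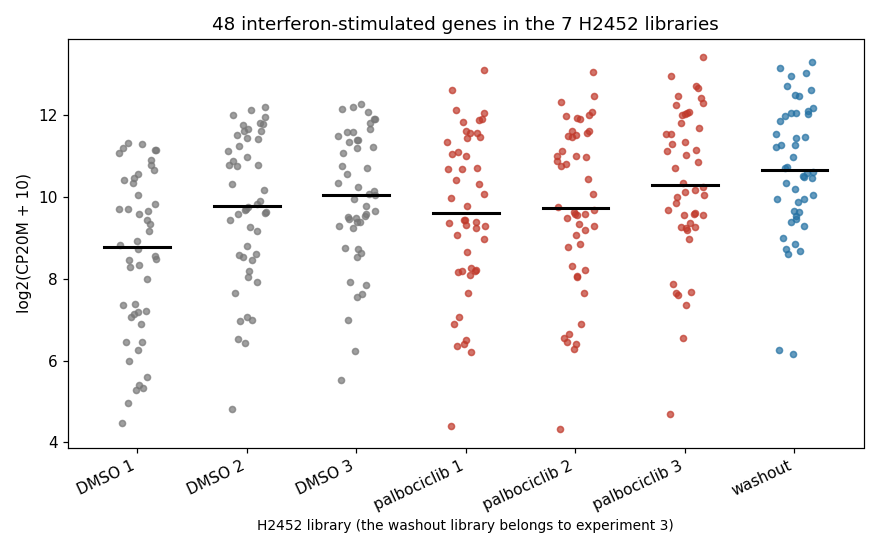
Level of each of the 48 genes (points) in the 7 H2452 libraries as log2(CP20M + 10), with a black bar at the median of the 48; horizontal spread within a column carries no meaning. The DMSO library of experiment 1 has the lowest median, and the washout library of experiment 3 has the highest.

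In the resistant lines no gene of the group passed in either direction, and the share over all genes was 0% upwards and 0% downwards in MPP89, and likewise 0% and 0% in MeT-5A. None of the 48 had an unadjusted p under 0.05 in either line, where 102 and 107 of the 17803 genes did. The spread in this test was shared over all 14 pairs, most of them from sensitive lines. It is not the spread of MPP89 or MeT-5A alone, and small changes there could be missed. IFIT2 was 1079 and 1165 CP20M under DMSO and 1052 and 1177 under palbociclib in MPP89, and 606 against 526 in MeT-5A. SAMD9L was 1061 and 1175 against 1072 and 1354 in MPP89 and 159 against 167 in MeT-5A. ISG15 was 4653 and 3934 against 3803 and 4599 in MPP89, and MX1 5537 and 4465 against 4636 and 5612. The fitted changes of the 48 genes ran from -0.29 to 0.21 in MPP89 and from -0.56 to 0.47 in MeT-5A, the latter from 1 pair. The 2 MPP89 pairs leaned opposite ways, with 40 genes lower in pair 1 (median -0.14) and 46 higher in pair 2 (0.15), and none of the 48 differed more than 1.5-fold in either pair. The medians of all genes tested were 0.018 and 0.00089 in these pairs.

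The difference of the response between sensitive and resistant lines passed for 5 genes upwards (10.4% of the 48, background 3.88%) and 2 downwards (4.17%, background 9.91%). IFIT2 differed by 2.18 ± 0.17 (SE; adjusted p = 0.000114), OAS2 by 1.43 ± 0.44 (SE; adjusted p = 0.0345), GBP3 by 1.06 ± 0.26 (SE; adjusted p = 0.0131), SAMD9L by 0.97 ± 0.26 (SE; adjusted p = 0.0193) and DDX58 by 0.63 ± 0.20 (SE; adjusted p = 0.0388). HERC5 (-0.73 ± 0.20) and OAS3 (-0.62 ± 0.18) were the 2 negative ones, and neither passed with the other scalings. IFIT2 passed under all 22 alternatives, GBP3 under 21, SAMD9L under 18, OAS2 under 15 and DDX58 under 11. Without the block 2 genes passed upwards (1.38% of all genes) and 0 downwards (6.2%), and with scaling by median of ratios 8 (8.39%) and 0 (4.7%). With MPP89 pair 1 left out 1 gene passed upwards, with MPP89 pair 2 left out 2 upwards and 0 downwards, with H2052 pair 1 left out 3 upwards, and with H2452 pair 2 or MSTO-211H pair 1 left out 9, and without MeT-5A OAS2 and OAS3 no longer passed. Only 3 resistant pairs entered the comparison, and being resistant cannot be told apart from being MPP89 or MeT-5A.

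After 48 h without the drug no gene of the group passed as lower than under it. Against palbociclib, 0 of the 48 genes passed in either direction in the washout libraries (background 1.4% upwards and 0% downwards), 3 of them with an unadjusted p under 0.05, although MKI67 was back at 3093 to 8328 CP20M in the 4 lines. The median difference of the 48 from palbociclib was 0.12, beside 0.09 for all genes. Against DMSO, 5 genes passed upwards (10.4%, background 2.81%) and 0 downwards (background 2.95%), with 16 of the 48 at an unadjusted p under 0.05. Over all 17803 genes tested, an unadjusted p under 0.05 was found for 5265 against DMSO and 2322 against palbociclib. The palbociclib and washout comparisons with DMSO share their DMSO libraries, and each condition had 1 library per line with the line as a block.

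IFIT2 was 550, 2398 and 2333 CP20M in DMSO, palbociclib and washout of H2052, and 757, 9808 and 7467 in MSTO-211H. IFIT2 stood at 3864, 10930 and 10047 in H2452 and 32, 85 and 69 in H28, and washout differed from DMSO by 1.91 ± 0.35 (SE; adjusted p = 0.0129) and from palbociclib by -0.20 ± 0.35 (SE; adjusted p = 0.882). The level after washout thus stayed near that under the drug in each line. IFIT1 was 2681, 4173 and 5736 in H2452, 1310, 1864 and 2129 in H2052, 111, 251 and 368 in MSTO-211H and 18, 10 and 20 in H28, and differed from DMSO by 0.88 ± 0.23 (SE; adjusted p = 0.0402). IFIT3 was 4531, 7911 and 9192 in H2452, 507, 647 and 945 in H2052, 662, 2221 and 1780 in MSTO-211H and 39, 59 and 63 in H28 (0.97 ± 0.20, adjusted p = 0.0166). Both genes stayed at or above their palbociclib level in H2052 and H2452, and IFIT1 in H28 was close to 0 reads in all 3 conditions. DDX58 was 792, 1057 and 1558 in H2452, 450, 629 and 659 in H2052, 547, 872 and 996 in MSTO-211H and 130, 210 and 200 in H28 (0.74 ± 0.11, adjusted p = 0.00731). SAMD9L was 1290, 2226 and 2389 in H2452, 456, 784 and 660 in H2052, 362, 2031 and 1751 in MSTO-211H and 23, 54 and 54 in H28 (1.15 ± 0.27, adjusted p = 0.0271). With a line left out, 1 to 5 genes passed against DMSO, fewest without H2052, 2 without H2452 and 3 without MSTO-211H, and without the line block none did.

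**Figure D5:**
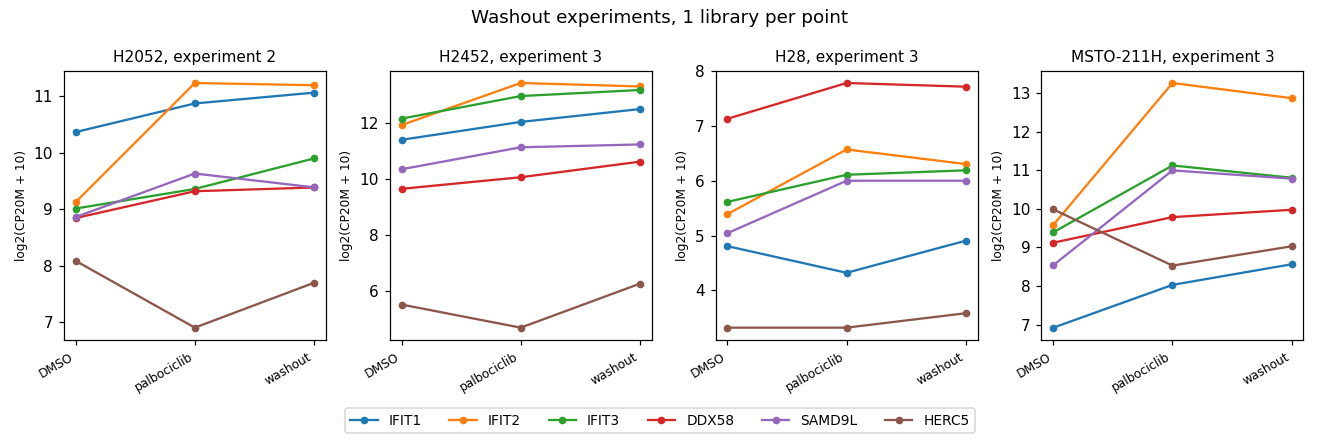
Level of 6 genes as log2(CP20M + 10) under DMSO, palbociclib and washout in the experiment of each sensitive line that had all 3 conditions, with 1 library per point. IFIT2 is higher under palbociclib than under DMSO in each line and remains near that level after washout, whereas HERC5 is lower under palbociclib in H2052, H2452 and MSTO-211H and rises part of the way or beyond after washout.

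HERC5 was 262, 110 and 198 CP20M in DMSO, palbociclib and washout of H2052, 36, 16 and 67 in H2452 and 1002, 359 and 512 in MSTO-211H, a difference from palbociclib of 0.78 ± 0.28 (SE; adjusted p = 0.265) that did not pass. OAS3 was 4706, 3566 and 8009 in H2452, 1556, 832 and 1292 in H2052, 1752, 1668 and 1693 in MSTO-211H and 1330, 813 and 1143 in H28 (0.58 ± 0.19, adjusted p = 0.206). CMPK2 was 178, 153 and 448 in H2452, 57, 16 and 44 in H2052, 3, 12 and 7 in MSTO-211H and 8, 8 and 23 in H28 (0.76 ± 0.34, adjusted p = 0.38). OAS3 was above its palbociclib level after washout in each line and CMPK2 in 3 of the 4, MSTO-211H being the exception, and in H2452 both lay above their DMSO level as well. H2452 had the most genes above palbociclib after washout, with 40 of 48 genes above palbociclib and 11 of them more than 1.5-fold above (22.9% of the 48; 13.8% of all genes were), against 5, 3 and 3 genes in H2052, H28 and MSTO-211H (7.35%, 8.13% and 4.88% of all genes). USP18 was 117, 191 and 413 in the 3 conditions of H2452, RSAD2 730, 752 and 1464 and ISG15 1200, 2064 and 2799. With 1 washout library per line these line-specific values have no replicate.

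Genes of the surrounding pathway, from lists set with earlier results known, were counted over the same 11 pairs. Of 11 receptor, kinase and STAT genes, 2 passed upwards and 0 downwards, with a median of 0.08: IFNGR1, a chain of the interferon-gamma receptor, was among them at 0.78 ± 0.08 (SE; adjusted p = 8.6e-06), while IFNAR1 changed by 0.41 ± 0.06 (SE; adjusted p = 8.19e-05), JAK1 by 0.27 ± 0.06 (SE; adjusted p = 0.0024) and IFNGR2 by -0.45 ± 0.12 (SE; adjusted p = 0.00585), all below the fold limit. Of 12 tested sensor and adaptor genes 0 passed upwards and 1 downwards (median 0.04), with 4 at an unadjusted p under 0.05: MB21D1, which codes for the DNA sensor cGAS, changed by -0.80 ± 0.12 (SE; adjusted p = 0.00018), and its adaptor TMEM173, or STING, by 0.20 ± 0.20 (SE; adjusted p = 0.413). Over all 17803 genes tested, 9819 had an unadjusted p under 0.05 in the 11 pairs, 5.58% passed upwards and 9.37% downwards. The receptor, kinase and STAT list had 18.2% upwards. The sensor and adaptor list had 8.33% downwards, which is below the share over all genes and does not set that list apart. Of 12 genes that brake the response or clear nucleic acid, 0 passed upwards and 2 downwards (median -0.20), RNASEH2A at -1.14 ± 0.18 (SE; adjusted p = 0.000239) and RNASEH2B at -0.91 ± 0.10 (SE; adjusted p = 1.28e-05), subunits of an enzyme that removes RNA from DNA. These 2 were 16.7% of their list. The third subunit, RNASEH2C, changed by -0.49 ± 0.07 (SE; adjusted p = 0.000126), and the exonuclease TREX1 by -0.33 ± 0.08 (SE; adjusted p = 0.00318). In MPP89 and MeT-5A 0 genes of these lists passed and none had an unadjusted p under 0.05.

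The receptors were present where the targets were not. In H28, whose targets were nearly silent, IFNAR1 averaged 1645 CP20M under DMSO and JAK1 5169, against 1088 and 4479 in H2052. TMEM173 averaged 38.0 in H28 and from 340.0 to 1209 in the other lines, and MYD88, an adaptor of Toll-like receptors, 29.3 against 291.0 to 928.0. The promoter core was present in 7 of the 9 risen genes with a window, in the 1 that fell, and in 17 of the 29 that did not pass (58.6%). IFIT2, which had the largest change, and OAS2 also rose but had no window and are not in this count. Genes with cores and no call included IFIT5, IFIH1 and IFITM3, and SAMD9L and DDX58 rose with none in the window. A match of letters is a description of the window and not of a factor bound there.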

How the data were processed

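RNA of 33 cultures was sequenced as paired-end libraries. The authors trimmed reads with Trimmomatic 0.36, aligned them to GRCh38 with STAR 2.5.3, counted them per Ensembl 90 gene with HTSeq 0.9.1 and used DESeq2; tool names and versions follow the submitters' processing notes and the study's methods, and the strand setting of the counting is not given in the sources used here. The deposited values are scores, reads scaled to a library of 20000000 (CP20M) rounded up to whole numbers, so no count test was run. Columns sum to between 20007662 and 20021400. From the whole numbers that scaled counts skip, depth was estimated at 12780000 to 19820000 reads in 23 libraries and could not be estimated in 10. Rounding up limits precision near 0.

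Genes reaching 100 CP20M in at least 1 library (17803 of 58302) were tested as log2(CP20M + 10) with limma 3.58.1 (R 4.3.3, trended variance). Fold changes are on that scale, which understates changes of low genes. A call needed a fold above 1.5 and a Benjamini-Hochberg false discovery rate under 0.05 over all genes tested. The 11 sensitive pairs were fitted with the experiment as block; the 14 pairs jointly with 1 effect per line (8 residual degrees of freedom), which gave the line values, the F test and the contrast between classes; the washout comparison on 12 libraries, blocked by line; and the 14 DMSO libraries by line. DMSO and palbociclib libraries of 1 experiment share a number in the labels, and their deviations from the group means correlated at r = 0.18 to 0.78 in every pair. Scripts were tested on simulated data.

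The 48 genes and the other lists were chosen with earlier results of these data known. Genes given by library were 23 widely used interferon-stimulated genes plus up to 5 of the largest rises and falls called in each comparison; genes outside that rule were picked after their values were seen. Gene positions are from GENCODE 44 and promoters from RefSeq, where DDX58 is listed as RIGI. No pair of libraries held identical values. Near-identical copies (IFITM1 to IFITM3, GBP1 and GBP3, USP18) and overlapping genes (PARP9 with DTX3L, CMPK2 with RSAD2) may share reads. Alternatives were 2 other scalings, pseudocounts of 1 and 50, other filters, fits without the block or the variance trend, line means, separate fits and leaving out each replicate.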

Additional observations from a re-analysis of the deposited data

Results flagged for a closer look

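The response to palbociclib differed among the 4 sensitive lines, by the limma F test of the line-specific changes, for 18 of the 48 genes. The adjusted p was 3.86e-05 for IFIT2, 0.00194 for IFI35, 0.00372 for ISG20, 0.00382 for IFI16, 0.00401 for IFI44, 0.0055 for HERC5 and 0.00864 for EPSTI1. It was 0.0133 for GBP2, 0.0141 for TRIM22, 0.0144 for PARP9, 0.0144 for IFIH1, 0.017 for IFITM3, 0.0281 for HERC6, 0.038 for IFI6, 0.0381 for IRF7, 0.0385 for SAMD9, 0.0389 for SP110 and 0.0412 for MX1. IFIT2 rose in all 4 lines and differed in size, whereas IFI35, ISG20, IFI16, IFI44, GBP2 and IFIH1 passed upwards in 1 line and downwards in another. With scaling by median of ratios only ISG20 still passed in opposite directions, since the downward calls of the other 5 were lost. Over all genes tested 43.6% passed the same test.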

How the results depend on the processing

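No count of genes called in MPP89, MeT-5A or washout against palbociclib left 0, and the basal F test held for 48 genes, under any alternative run. Without the replicate block H2052 had 3 genes up and 4 down, H2452 6 up, H28 6 up and 0 down, and MSTO-211H 3 down; sensitive against resistant lines had 2 up and 0 down, 6 genes differed among sensitive lines, and washout against DMSO had 0 up. With a pseudocount of 1 the 11 pairs had 0 down, H28 2 down and the class difference 1 down; with 50 the 11 pairs had 0 down, H28 6 up, MSTO-211H 3 down and the class difference 3 up, and OASL turned to -0.035. With no filter H2052 had 2 up, H2452 7 up, MSTO-211H 2 down, the class difference 2 up and 1 down, 7 genes differed among lines, and basal H2052 had 7 down. Scaling by median of ratios gave 0 down in the 11 pairs, 3 down in H2052, 23 up in H2452, 0 down in H28, 2 down in MSTO-211H, and 8 up and 0 down between classes; upper-quartile scaling gave 0 down, 11 up and 3 down, 23 up, 0 down, 3 down, and 9 up and 0 down in the same order. Line means as units gave 0 down over the 11 pairs, and separate fits gave 2 down in H2052, 3 up in H2452 and 1 down in MSTO-211H. The cause was not tested.

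Leaving out 1 replicate gave 11 to 13 genes up and 0 to 2 down over the 11 pairs, 2 to 8 up and 1 to 8 down in H2052, 3 to 24 up and 0 to 1 down in H2452, 6 to 12 up and 0 to 1 down in H28, and 9 to 17 up and 3 to 6 down in MSTO-211H. The class difference ran from 1 to 9 up and 0 to 2 down, genes differing among lines from 12 to 29, and washout against DMSO, leaving out a line, from 1 to 5 up. Basal counts ran from 6 to 9 up and 5 to 13 down in H2052 (5 without DMSO replicate 1), 23 to 41 up and 2 to 4 down in H2452, and 8 to 10 up and 9 to 16 down in MeT-5A (16 without H2452 DMSO replicate 1). Over the 11 pairs OASL ran from -0.10 to 0.16 (-0.00312 without H2052 replicate 1, -0.012 without H28 replicate 3), USP18 from -0.025 without H2452 replicate 1 to 0.25 (-0.00239 without H28 replicate 2), and, lowest without H2452 replicate 1, MX1 from -0.12 to 0.25 and IFIH1 from -0.026 to 0.21. Depth limits the genes near 0 reads, above all in H28.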
